A study of Mus musculus with 12 samples.

Results

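MS-275 (entinostat) and CXD101 are small-molecule inhibitors of the class I histone deacetylases HDAC1, HDAC2 and HDAC3, and the libraries described here set them directly against each other in one cell type, the monocytic myeloid-derived suppressor cell (M-MDSC). The comparison holds 4 of the 12 RNA-seq samples of the series, 2 M-MDSC libraries from mice given MS-275 and 2 from mice given CXD101, chosen by cell type and treatment alone and compared across all gene symbols. All groups shared one model. Wild-type female C57BL/6J mice, 6 to 8 weeks old, carried orthotopic Hepa 1-6 tumors (a mouse hepatoma line) in the liver. Each inhibitor was injected intraperitoneally at 5 mg/kg once a day for 10 days, starting on day 10 after tumor cell inoculation, and tumors were collected on day 21, so dose, route and schedule were matched. Animals had been selected beforehand by the proportion of MDSCs in their blood. M-MDSCs were sorted from the tumors as CD11b+ Ly-6Chi Ly-6G- cells. M-MDSC libraries from mice given the vehicle (2) served as the shared background, and the CD11b+ Ly-6Cint Ly-6G+ polymorphonuclear MDSCs (PMN-MDSCs) of the same treatments (4 libraries) as a second cell type. The labels do not say whether the 2 libraries of a group came from separate mice, so the p-values below measure the spread between these libraries.

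Histone deacetylases remove acetyl groups from histone tails, and HDAC1 to HDAC3 act inside corepressor complexes that keep chromatin closed at their target genes. Inhibitors of these enzymes raise histone acetylation and change transcription in both directions. M-MDSCs are immature monocyte-lineage cells that accumulate in tumors, enter them by way of the chemokine receptor CCR2, and restrain T cells with enzymes such as arginase.

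The 4 treated libraries were estimated, within a preset range of depths, to hold between 8350000 and 10600000 reads. At the median of these estimates, 1 FPKM (a read count per transcript length and library size) on a transcript of 2 kb corresponds to about 18.1 reads. Across the 10944 genes tested, those with at least 1 FPKM in 2 or more of the 4 treated libraries, Pearson's r between libraries on the log2(FPKM + 1) scale was 0.992 within each treatment and between 0.982 and 0.984 across the 2 inhibitors, as a description across genes that are not independent. The gate markers were at high levels. Ly6c2, the main Ly-6C gene of monocytes, was at 1360.2 and 1306 FPKM in the vehicle libraries, 2110.4 and 2041 under CXD101 and 2395 and 2447 under MS-275, and Itgam, which encodes CD11b, lay between 257 and 285 FPKM in all 6. Ly6g was not analysed here. In bulk libraries such as these, fewer cells of a type and less RNA per cell cannot be told apart. Lymphocyte and NK cell markers summed to at most 0.875 FPKM over the 8 genes found, and erythroid markers to at most 0.873 FPKM over 5.

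At the matched dose the 2 inhibitors left different transcriptomes. A gene was called when limma gave an adjusted p (Benjamini-Hochberg) under 0.05 and the difference was above 1.5-fold. Some genes passed the filter only through the inhibitor where they were high, which favors a difference. Through MS-275 this holds for Hoxa10, Gm16897, Sult4a1, Lynx1, H2-Q8, Cdkn2a, Cdkn1c, Bik, Ctsf, H1fx, Usp18 and Gp9. Through CXD101 it holds for C1qb, Ctsk, Ccl7, Il15 and Mir6516. Counts and medians of lists with such genes carry this limit. Under MS-275, 362 genes (3.31% of those tested) were higher than under CXD101 and 130 (1.19%) were lower. These 2 shares are the background for the calls of every list below. The lists were chosen with earlier results of these data known, so a share above the background is a description and not a test. With the adjusted p alone, 699 (6.39%) were higher and 892 (8.15%) lower. Both MS-275 libraries lay above both CXD101 libraries for 2691 genes (24.6%), and the reverse held for 3842 genes (35.1%). The median difference over all tested genes was -0.04 on the log2(FPKM + 1) scale, which understates the change of genes with low values, and the range from the 5th to the 95th percentile was -0.38 to 0.50. On this scale most differences were modest. Among the called genes 98 of the increases and 37 of the decreases exceeded 2-fold, and 4 in each direction exceeded 4-fold. Ratios of FPKM itself are larger for genes with low values. Tmem98, for instance, had means of 8.27 and 1.73 FPKM but a 3.40-fold difference on this scale. For 8829 genes (80.7%) the 95% interval of the difference lay within 1.5-fold in either direction, so differences above that size between the inhibitors lie outside the interval for these genes at this spread. A further 13 genes differed by more than 2-fold without passing the test.

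**Figure D1:**
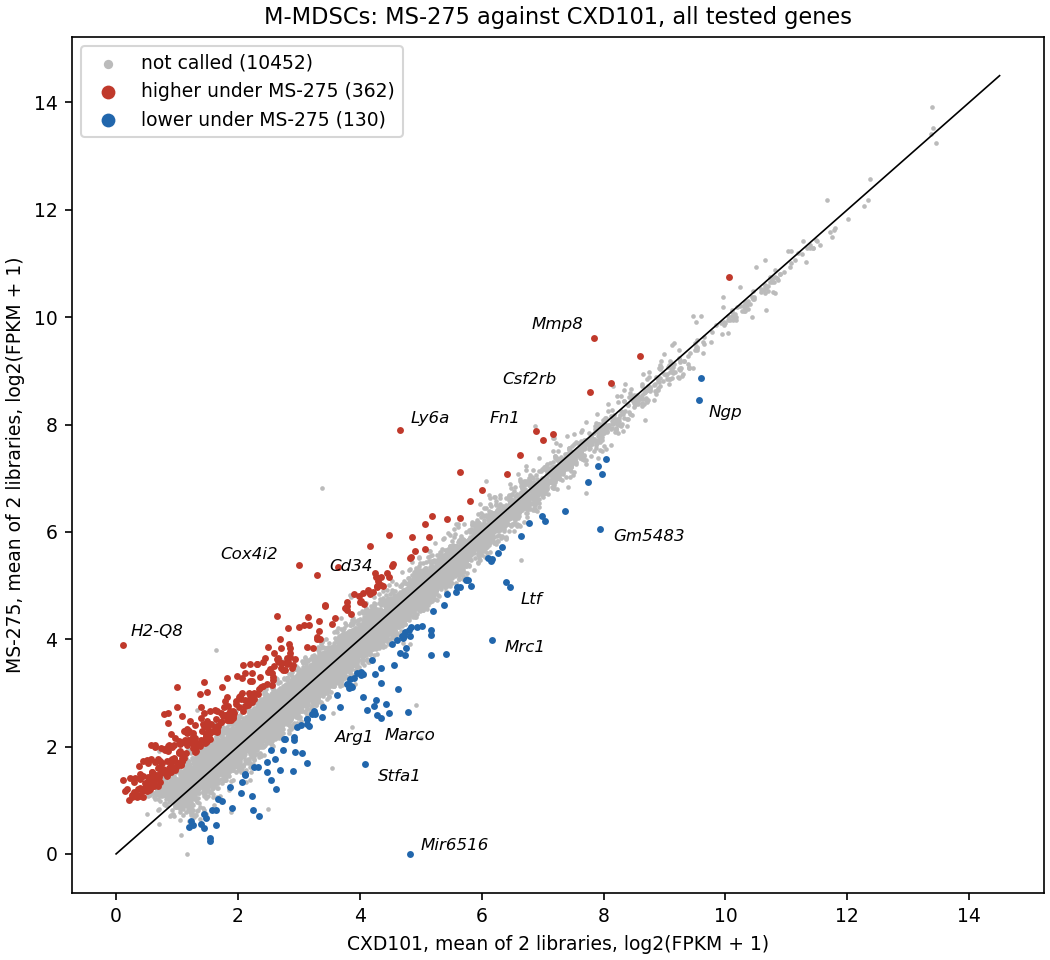
Mean log2(FPKM + 1) of the 2 CXD101 libraries (x axis) and of the 2 MS-275 libraries (y axis) for the 10944 genes tested in M-MDSCs, with the line of equal values; red points are the 362 genes called higher under MS-275 and blue points the 130 called lower. Ly6a, Mmp8, Mrc1 and Ngp stand away from the line at higher levels.

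Each inhibitor was also set beside vehicle. Across all tested genes, Pearson's r with the vehicle libraries was 0.958 for the MS-275 libraries and between 0.977 and 0.980 for the CXD101 libraries. Over the 362 genes called higher, the median difference from vehicle was 1.31 (log2) under MS-275 and 0.45 under CXD101. Over the 130 genes called lower, the medians were -1.03 for MS-275 and -0.28 for CXD101. For all tested genes the medians were -0.06 and -0.02. These values share the vehicle libraries with each other and the treated libraries with the direct contrast, so they are given side by side only. The called genes were chosen on MS-275 minus CXD101, so the gaps between the medians of the called sets follow from that choice. Split by the mean vehicle level, 135 of 2266 genes between 1 and 5 FPKM in vehicle were higher under MS-275 (5.96%) and 13 lower. Of 3223 genes between 20 and 100 FPKM, 16 were higher and 50 lower (1.55%). Of 3952 genes between 5 and 20 FPKM, 36 were higher and 50 lower, and of 901 genes over 100 FPKM, 6 and 12. Of 602 genes under 1 FPKM in vehicle, 169 were higher under MS-275 (28.1%) and 5 lower. All genes were filtered on the treated libraries alone, so the share in this lowest class may partly follow from the filter.

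**Figure D2:**
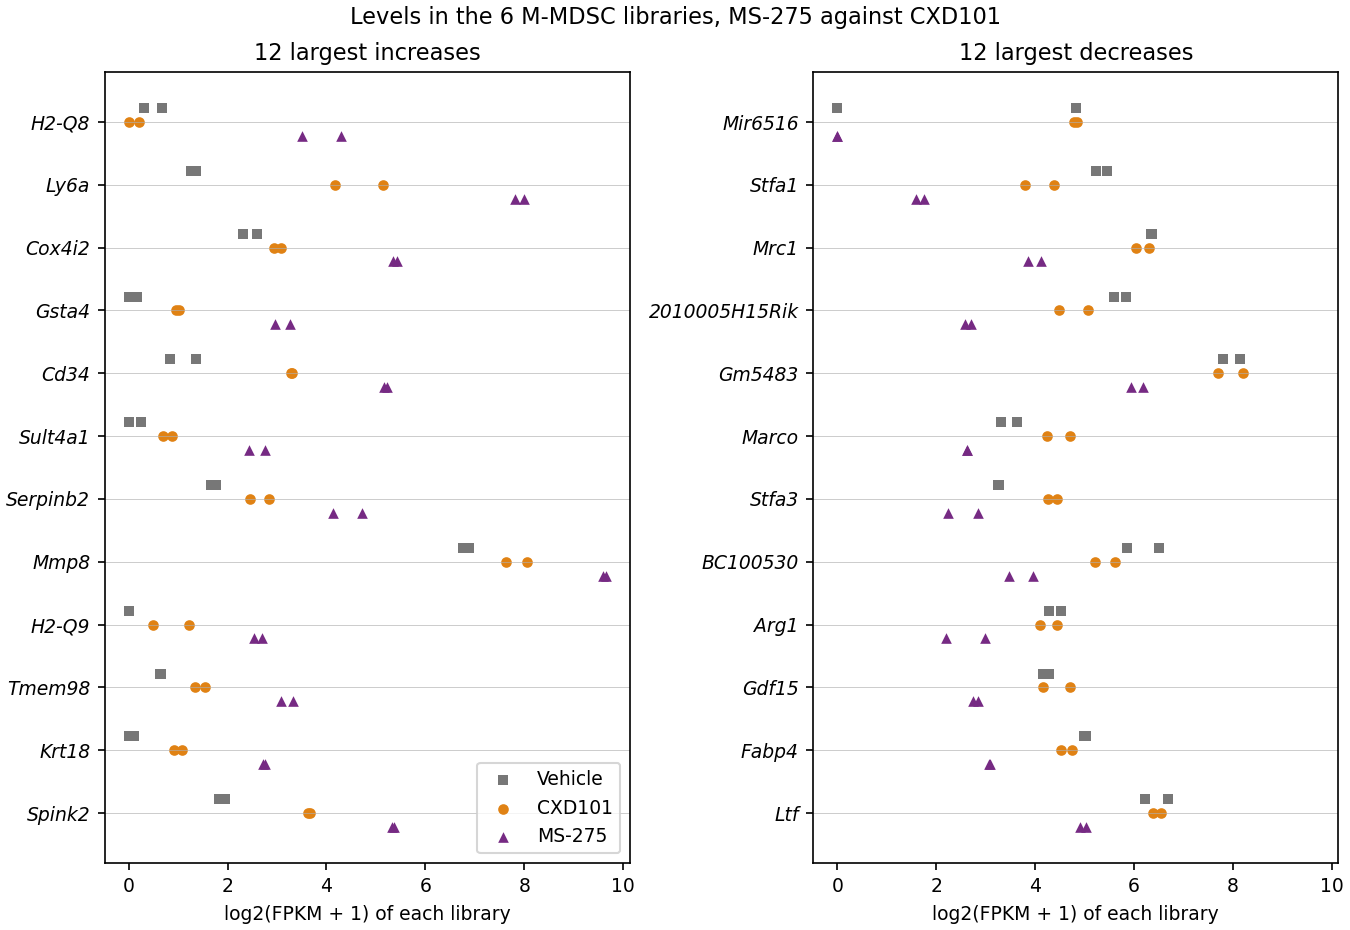
log2(FPKM + 1) in each of the 6 M-MDSC libraries (squares vehicle, circles CXD101, triangles MS-275) for the 12 called genes with the largest increase (left) and the 12 with the largest decrease (right) under MS-275 against CXD101, among genes with a mean of at least 5 FPKM in the higher group and no overlap between the 2 treatments. The separation of triangles and circles follows from that choice. Squares lie near the circles for Mrc1 and Gm5483 and below them for Ly6a.

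The largest difference at a high level was in Ly6a, which encodes the stem cell antigen Sca-1 (GRCm38 chr15:74994877-74998031, minus strand). Ly6a was at 1.39 and 1.58 FPKM in the vehicle libraries, 34.5 and 17.1 under CXD101 and 224 and 254 under MS-275. The lower MS-275 library was above the higher CXD101 library by a wide margin, and both CXD101 libraries were above vehicle. The difference was 3.24 (log2; SE 0.249, adjusted p = 0.00031). Cd34, a sialomucin of blood stem cells and endothelium (chr1:194938819-194961279), was at 1.56 and 0.79 FPKM in vehicle, 8.73 and 8.94 under CXD101 and 36.6 and 35 under MS-275 (log2 difference 1.90, SE 0.152, adjusted p = 0.00034). Gm16897, an antisense transcript that overlaps the 3′ part of Cd34 on the minus strand, was called in the same direction. Since the use of strand in counting is not stated, reads of the 2 cannot be told apart there. Spink2, a serine protease inhibitor transcribed in hematopoietic progenitors, was at 2.86 and 2.55 FPKM in vehicle, 11.3 and 11.7 under CXD101 and 39 and 40.1 under MS-275 (log2 difference 1.70, SE 0.0854, adjusted p = 6.25e-05). For all 3 genes the CXD101 libraries stood between vehicle and MS-275.

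Of the stem and progenitor genes, 8 of 21 tested were called higher under MS-275 (beside 3.31% of all tested genes) and none lower. The median difference was 0.51 beside -0.04 over all genes, and another 9 of the 30 found did not reach the filter. Hoxa10 passed it through the MS-275 libraries alone (1.14 and 1.06 against 0.247 and 0.368 FPKM), so these figures partly follow from the filter. They may also follow from the choice of the list, which was made with earlier results of these data known. Beside Ly6a, Cd34, Spink2 and Procr, the calls were the transcription factor genes Gata2 (log2 difference 0.70), Hoxa10 (0.69) and Erg (0.69), and Egfl7, a gene of endothelium and stem cells (36 and 30.6 against 19.4 and 17.7 FPKM, log2 difference 0.80). These 4 calls were lost for Gata2 without CXD101 replicate 1 or either MS-275 library (adjusted p up to 0.139), Hoxa10 without any 1 of the 4 treated libraries (adjusted p up to 0.122), Erg without MS-275 replicate 2 (adjusted p up to 0.0594) and Egfl7 without CXD101 replicate 2 (adjusted p up to 0.0569). In 16 of the 21 both MS-275 libraries lay above both CXD101 libraries, beside 24.6% of all tested genes. Myb, a transcription factor of progenitor proliferation, was at 12.4 and 11.1 FPKM in vehicle, 38.5 and 34.8 under CXD101 and 53.1 and 56.4 under MS-275 (log2 difference 0.57, adjusted p = 0.00433). Kit, the stem cell factor receptor, was at 3.86 and 3.38 FPKM in vehicle, 7.18 and 7.48 under CXD101 and 10.4 and 11.7 under MS-275 (log2 difference 0.53, adjusted p = 0.0133). Both passed the adjusted p but not the 1.5-fold limit. Procr, the endothelial protein C receptor, was at 1.79 and 1.5 FPKM under CXD101 and 4.44 and 3.35 under MS-275 (log2 difference 0.88, adjusted p = 0.00834). The call was lost without CXD101 replicate 2 or MS-275 replicate 1 (adjusted p up to 0.0528). The 6 tested Ly6 family genes all had positive differences, and beside Ly6a the list holds 1 more call, the neuronal family member Lynx1 (1.82 and 1.66 against 0.596 and 0.604 FPKM, log2 difference 0.77), lost without any 1 of the 4 treated libraries (adjusted p up to 0.0905). Ly6c2 passed the adjusted p with a difference of 0.22, and for Ly6c1 the libraries of the 2 inhibitors overlapped (log2 difference 0.16, adjusted p = 0.484). Ly6 genes are paralogs and may share reads.

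Other genes among the 12 largest increases have known roles outside the lineage lists. Cox4i2, a subunit isoform of cytochrome c oxidase used under low oxygen, was at 5.08 and 3.97 FPKM in vehicle, 6.66 and 7.44 under CXD101 and 39.6 and 42.1 under MS-275 (log2 difference 2.38, SE 0.113, adjusted p = 6.25e-05). Gsta4, a glutathione transferase for lipid aldehydes, was at 0 and 0.131 FPKM in vehicle, 1.03 and 0.952 under CXD101 and 8.67 and 6.77 under MS-275 (log2 difference 2.12). Krt18, a keratin of simple epithelia, was at 0.892 and 1.12 FPKM under CXD101 and 5.54 and 5.73 under MS-275 (log2 difference 1.73), and at 0.0795 and 0 in vehicle. Both were nearly silent in vehicle cells. Serpinb2, the plasminogen activator inhibitor type 2, was at 2.19 and 2.39 FPKM in vehicle, 6.19 and 4.46 under CXD101 and 16.7 and 25.3 under MS-275 (log2 difference 1.78, adjusted p = 0.0012). Sult4a1, a sulfotransferase-like gene, had a difference of 1.81 and Tmem98, a transmembrane protein gene, of 1.76.

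The stefins, small inhibitors of cysteine proteases, showed the opposite pattern. Of the stefin and cystatin genes, 6 of 12 tested were called lower under MS-275 and none higher, with a median difference of -0.84. The 6 are Stfa1, Stfa2l1, Stfa3, Gm5483, BC100530 and 2010005H15Rik, all members of 1 tandem cluster on chromosome 16. Their start regions are shown because the members are near copies of each other and fell together. Each line gives the 120 bases before the annotated start from RefSeq (GRCm38.p6), 5′ to 3′ on the gene's strand, with the longest run found in all 4 in capitals: Stfa1 at chr16:36277028-36277147 (plus strand), Stfa2l1 at chr16:36156691-36156810 (plus), Gm5483, listed there as Cstdc4, at chr16:36184092-36184211 (plus), and Stfa3 at chr16:36455393-36455512 (minus).
Stfa1: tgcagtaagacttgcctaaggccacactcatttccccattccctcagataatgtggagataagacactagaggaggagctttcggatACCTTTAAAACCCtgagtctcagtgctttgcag
Stfa2l1: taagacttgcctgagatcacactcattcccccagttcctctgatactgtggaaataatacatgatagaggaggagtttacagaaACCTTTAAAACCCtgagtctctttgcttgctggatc
Gm5483: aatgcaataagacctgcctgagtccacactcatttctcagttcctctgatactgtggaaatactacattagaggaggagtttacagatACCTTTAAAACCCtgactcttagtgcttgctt
Stfa3: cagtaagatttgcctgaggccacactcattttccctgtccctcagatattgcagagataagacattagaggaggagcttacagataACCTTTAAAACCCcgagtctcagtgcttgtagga
In pairwise global alignments these 4 regions were 76.6 to 84.6% identical. The 13-base run ACCTTTAAAACCC begins between 36 and 32 bases before each start, and on either strand it is held by 8 of 27025 RefSeq promoters of 300 bases (0.0296%): Stfa1, Stfa2, Stfa2l1, Stfa3, Csta3, Cstdc4, Cstdc5 and Gm7260. Genes this alike may share reads, so the values of single stefins are uncertain. The run was picked as the longest shared by these 4 genes, so its rarity partly follows from that choice. Stfa2 is among the 8 but was not called, and 2010005H15Rik, listed in RefSeq as Csta2, was called lower and is not among them.

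Summed over the 10 listed members on chromosome 16, called or not, the level was 539 and 414 FPKM in the vehicle libraries, 456 and 335 under CXD101 and 101 and 122 under MS-275, a 3.54-fold decrease from the CXD101 mean to the MS-275 mean, while the CXD101 and vehicle libraries overlapped. Over all 14 listed stefins and cystatins the sums were 1641 and 1501 FPKM under CXD101 and 1159 and 1208 under MS-275, most of it from Cst3 and Cstb, which were not called. Stfa2, another uncalled member, was at 6.15 and 3.26 FPKM under CXD101 and 6.63 and 8.38 under MS-275. Stfa1 was at 42.7 and 36.8 FPKM in vehicle, 19.8 and 12.8 under CXD101 and 2.39 and 2.02 under MS-275 (log2 difference -2.41, SE 0.174, adjusted p = 0.000265). Gm5483, the member with the highest level, was at 282 and 222 FPKM in vehicle, 292 and 207 under CXD101 and 60.4 and 71.7 under MS-275 (log2 difference -1.88, adjusted p = 0.000421). For Gm5483 the vehicle and CXD101 libraries overlapped and both MS-275 libraries were below them. Stfa3 was higher under CXD101 (20.8 and 18.1 FPKM) than in vehicle (8.61 and 8.51) and at 3.69 and 6.22 under MS-275 (log2 difference -1.81, adjusted p = 0.000765). BC100530 (log2 difference -1.70, adjusted p = 0.0029), 2010005H15Rik (log2 difference -2.13, adjusted p = 0.00034) and Stfa2l1 (log2 difference -1.46, adjusted p = 0.00172) were lower too.

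Neutrophil granule genes went in both directions. Secondary and tertiary granule genes, which are made at the myelocyte stage and later, had 4 of 12 called lower and 1 higher under MS-275, with a median of -0.34. Ltf, which encodes lactoferrin, was at 73.3 and 102 FPKM in vehicle, 82.1 and 92.2 under CXD101 and 29.1 and 31.8 under MS-275 (log2 difference -1.49, SE 0.135, adjusted p = 0.000501). Camp, the cathelicidin gene, was at 51.8 and 82.8 FPKM in vehicle, 80.8 and 86.8 under CXD101 and 26.9 and 39.5 under MS-275 (log2 difference -1.33, adjusted p = 0.00622). Ngp, a neutrophilic granule protein gene, was at 470.1 and 544 FPKM in vehicle, 714 and 795 under CXD101 and 331 and 372 under MS-275 (log2 difference -1.10, SE 0.0894, adjusted p = 0.000341). In Ngp both CXD101 libraries were above vehicle and both MS-275 libraries below it. Fcnb, ficolin B, was at 27 and 26.8 FPKM in vehicle, 72 and 80.5 under CXD101 and 46.9 and 48 under MS-275 (log2 difference -0.67, adjusted p = 0.00112), so both inhibitors lay above vehicle and MS-275 was the lower of them. Mmp8, the neutrophil collagenase, went the other way and was the granule gene with the largest difference, at 117 and 107 FPKM in vehicle, 266 and 196 under CXD101 and 768 and 801 under MS-275 (log2 difference 1.77, SE 0.121, adjusted p = 0.000239).

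Primary granule genes, made at the promyelocyte stage, were high under both inhibitors. Elane, neutrophil elastase, was at 436 and 439.9 FPKM in vehicle, 1659.9 and 1551 under CXD101 and 2064 and 2244 under MS-275 (log2 difference 0.42, adjusted p = 0.00439), and Mpo, myeloperoxidase, at 298 and 257 FPKM in vehicle, 777 in both under CXD101 and 1018 and 1059 under MS-275 (log2 difference 0.42, adjusted p = 0.00844). Neither reached 1.5-fold between the inhibitors. Srgn, the granule proteoglycan serglycin, was the 1 call of 9 tested (596 and 639.8 against 419 and 359 FPKM, log2 difference 0.67), lost without CXD101 replicate 2 (log2 difference 0.56). The alarmin genes S100a8 and S100a9 did not pass the test. S100a8 was at 10828 and 12836 FPKM under MS-275 and 11178 and 10467 under CXD101 (95% interval of the log2 difference -0.09 to 0.34), and S100a9 at 10007 and 11888 and 10842 and 10326 (interval -0.15 to 0.24). The only S100 call of 9 tested was S100a1, at 103 and 96.1 FPKM under CXD101 and 57.4 and 62.5 under MS-275 (log2 difference -0.72, adjusted p = 0.00155). The neutrophil marker list moved in both directions, with 2 of 10 tested higher and 3 lower, and its sum was 22041 and 26019.8 FPKM under MS-275, 23199 and 22001 under CXD101 and 12081 and 11426 in vehicle, nearly all of it S100a8 and S100a9. The part of admixed neutrophils in the granule differences was not tested.

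Start regions of the 4 granule genes with the largest differences are shown because genes of one granule program went in opposite directions. The capitals mark TTGCNNAA, a sequence of the type bound by C/EBP factors, searched on both strands with overlapping matches allowed. The 120 bases before each start come from RefSeq (GRCm38.p6), with Mmp8 at chr9:7558309-7558428 (plus strand), Ltf at chr9:111019172-111019291 (plus), Ngp at chr9:110419688-110419807 (plus) and Camp at chr9:109849457-109849576 (minus).
Mmp8: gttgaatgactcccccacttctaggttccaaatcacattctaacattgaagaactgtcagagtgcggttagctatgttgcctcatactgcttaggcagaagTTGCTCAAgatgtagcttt
Ltf: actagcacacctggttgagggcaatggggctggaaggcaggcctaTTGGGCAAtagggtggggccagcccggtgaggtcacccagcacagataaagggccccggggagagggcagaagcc
Ngp: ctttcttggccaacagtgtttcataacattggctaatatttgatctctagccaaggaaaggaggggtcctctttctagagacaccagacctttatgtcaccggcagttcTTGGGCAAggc
Camp: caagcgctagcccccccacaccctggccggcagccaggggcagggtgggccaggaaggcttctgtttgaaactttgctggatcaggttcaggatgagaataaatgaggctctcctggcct
Mmp8, the one higher under MS-275, holds a match beginning 19 bases before its start, Ltf one at 75 bases and Ngp one at 11 bases, and Camp holds none in this window. In the 300-base windows of the table (250 bases before to 50 after each start) the sequence occurs in 8.27% of the 8814 matched promoters of tested genes, in 11.5% of 269 promoters of genes higher under MS-275 and in 15.5% of 97 promoters of genes lower under MS-275. The median number of CpG dinucleotides per promoter was 21 over all, 17 for the higher genes and 7 for the lower genes. The GC box GGGCGG was present in 65.6% of all promoters, 53.2% of those of higher genes and 42.3% of those of lower genes, and the AP-1 sequence TGACTCA in 3.57%, 7.81% and 8.25%. CCAAT was found in 39.5%, 36.1% and 42.3%, TATAAA in 6.55%, 10.8% and 8.25%, and the ETS-type AGGAAGT in 9.76%, 8.18% and 15.5%. Each motif was counted on both strands, and a match describes letters in the window, not binding.

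Several macrophage genes had less transcript under MS-275. Of the C1q and tumor macrophage genes, 4 of 15 tested were called lower (beside 1.19% of all tested genes) and none higher (median -0.22). Mrc1, the mannose receptor CD206 (chr2:14229392-14332057), was at 79.9 and 81.3 FPKM in vehicle, 65 and 77.4 under CXD101 and 16.4 and 13.5 under MS-275 (log2 difference -2.18, SE 0.106, adjusted p = 6.25e-05). The CXD101 libraries lay just below the vehicle libraries, and the MS-275 libraries far below both. Marco, a scavenger receptor for bacteria and particles, was at 8.97 and 11.4 FPKM in vehicle, 18 and 25 under CXD101 and 5.17 and 5.19 under MS-275 (log2 difference -1.85, SE 0.155, adjusted p = 0.000371). Here the 2 inhibitors stood on opposite sides of vehicle. C1qb, a chain of complement C1q, was at 15.5 and 14 FPKM in vehicle, 4.63 and 3.59 under CXD101 and 0.501 and 0.76 under MS-275 (log2 difference -1.65, adjusted p = 0.000406), and Mertk, a receptor for apoptotic cells, at 5.31 and 5.24 FPKM in vehicle, 3.77 and 3.59 under CXD101 and 1.18 and 1.04 under MS-275 (log2 difference -1.15, adjusted p = 0.000868). Both inhibitors were below vehicle for these genes and MS-275 was the lower.

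Of 35 tested myeloid transcription factor genes, 3 were called lower and none higher, with 13 positive differences and a median of -0.05, close to that of all genes. Klf4, needed for monocyte differentiation, was at 53.1 and 54.6 FPKM in vehicle, 33.5 and 36.9 under CXD101 and 17.8 and 16.4 under MS-275 (log2 difference -0.999, SE 0.076, adjusted p = 0.000296). Cebpd was at 14.3 and 15.6 FPKM in vehicle, 13.2 and 13 under CXD101 and 8.04 and 7.67 under MS-275 (log2 difference -0.67, adjusted p = 0.00222). The macrophage marker list, which shares Mrc1, C1qb and Mertk, had 3 of 7 tested called lower and summed to 110.0 and 101 FPKM under MS-275, 156 and 174 under CXD101 and 196 and 199.5 in vehicle, with Vsig4 listed at 0 in all 6 libraries. Adgre1, the F4/80 gene, had a difference of 0.31 (adjusted p = 0.0322), opposite in sign and below the fold limit. The part of admixed macrophages in these differences was not tested. Fn1, fibronectin, was the only call among 9 tested M-MDSC and monocyte markers and was higher under MS-275 (97.4 and 98.3 FPKM in vehicle, 115 and 119 under CXD101, 249.8 and 220.4 under MS-275, log2 difference 0.99, adjusted p = 0.000239).

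Lipid and lysosome genes gave few calls. Fabp4, the fatty acid binding protein of macrophages and adipocytes, was at 31.7 and 30.8 FPKM in vehicle, 21.9 and 25.8 under CXD101 and 7.46 and 7.44 under MS-275 (log2 difference -1.55, SE 0.0895, adjusted p = 0.000118). Nr1h3, the oxysterol receptor LXR alpha, was lower as well (3.72 and 3.06 against 6.15 and 7.01 FPKM, log2 difference -0.79, adjusted p = 0.00583), and Olr1, the receptor for oxidized LDL, was higher (10.1 and 8.54 against 3.23 and 3.43, log2 difference 1.25, adjusted p = 0.000689). These are the 3 calls of 17 lipid uptake, storage and efflux genes. Pparg passed the adjusted p with a difference of -0.53. Among 30 cathepsin and V-ATPase genes, 2 were higher and 2 lower. Ctsk, cathepsin K, was at 4.76 and 4.82 FPKM in vehicle, 1.76 and 2.09 under CXD101 and 0.125 and 0.237 under MS-275 (log2 difference -1.31, adjusted p = 0.00106), whereas Ctsl (129 and 138 against 89.5 and 80.2 FPKM, log2 difference 0.65) and Ctsf (1.99 and 3.01 against 0.932 and 0.928 FPKM, log2 difference 0.84) were higher and Atp6v0d2 (1.24 and 1.51 against 2.2 and 3.17 FPKM, log2 difference -0.62) was lower. The last 3 calls were lost for Ctsl without CXD101 replicate 2 (log2 difference 0.57), Ctsf without either CXD101 library or MS-275 replicate 2 (adjusted p up to 0.124) and Atp6v0d2 without CXD101 replicate 2 or either MS-275 library (adjusted p up to 0.118). No call was made among 27 glycolysis and hypoxia genes (median 0.03), 29 cholesterol and fatty acid synthesis genes (-0.14), 15 serine and one-carbon genes (-0.10), 13 iron handling genes (-0.17) or 35 ribosomal protein genes (-0.08).

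**Figure D3:**
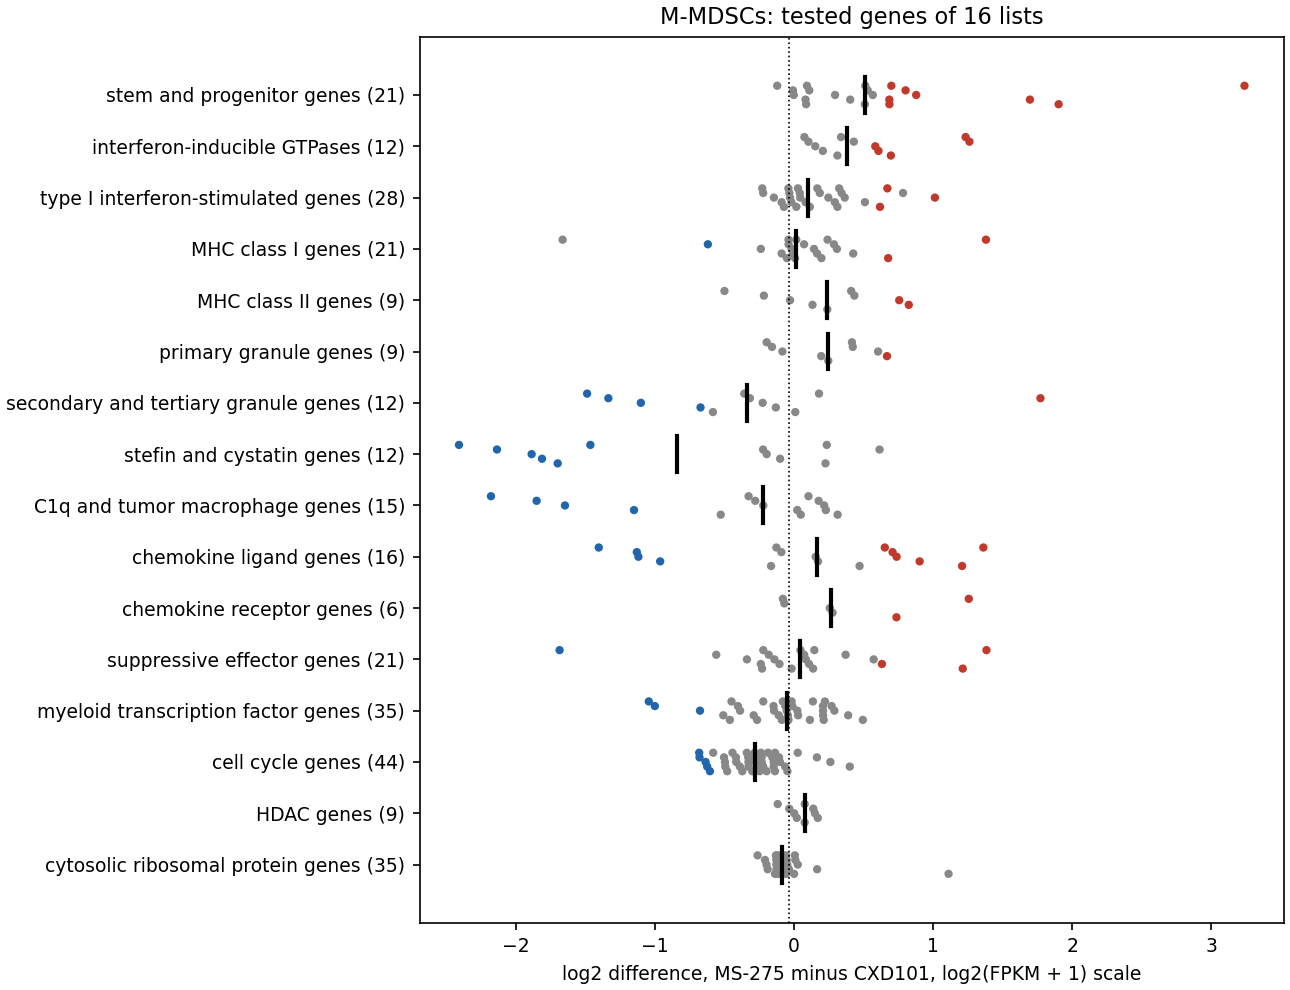
log2 difference (MS-275 minus CXD101, log2(FPKM + 1) scale) of every tested gene of 16 lists in M-MDSCs, with the number tested in brackets; red points are called higher, blue called lower and grey not called, the black bar is the list's median and the dotted line the median of all genes, -0.04. The stefin and cystatin genes reach from -2.41 to 0.62 and the stem and progenitor genes from -0.12 to 3.24.

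Antigen presentation genes gave few calls but some large differences. The class Ib genes H2-Q6, H2-Q7, H2-Q8 and H2-Q9 lie side by side and are near copies, and their single values can trade reads. H2-Q8 was at 0.587 and 0.245 FPKM in vehicle, 0.152 and 0.00572 under CXD101 and 10.3 and 18.7 under MS-275 (log2 difference 3.79, SE 0.249, adjusted p = 0.000192), the largest increase of all. H2-Q7 (16.2 and 18.7 against 8.28 and 4.37 FPKM, log2 difference 1.38, adjusted p = 0.00772) and H2-Q9 (4.82 and 5.47 against 1.33 and 0.402, log2 difference 1.76, adjusted p = 0.00235) were called higher too, while H2-Q6 was at 2.12 and 0.02 FPKM under MS-275 and 7.45 and 2.77 under CXD101 (log2 difference -1.66, adjusted p = 0.0586). Summed, the 4 genes were at 2.12 and 1.2 FPKM in vehicle, 17.2 and 7.55 under CXD101 and 33.4 and 42.9 under MS-275, 3.08-fold higher under MS-275 in the means with no overlap. H2-Q4 was higher (27 and 28.7 against 18 and 16.1 FPKM, log2 difference 0.68, adjusted p = 0.00224). Psmb10, an immunoproteasome subunit, was lower (29.7 and 31 against 48.5 and 45.8, log2 difference -0.62, adjusted p = 0.00138), a call lost without CXD101 replicate 1 (log2 difference -0.58). In all, 2 of 21 tested MHC class I genes on the list were higher and 1 lower, with a median of 0.02.

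Of 9 tested MHC class II genes, 2 were called higher under MS-275 and none lower. H2-Ab1, the beta chain of I-A, was at 22.5 and 23.1 FPKM in vehicle, 12.5 and 13.3 under CXD101 and 23.7 and 23.4 under MS-275 (log2 difference 0.83, SE 0.0734, adjusted p = 0.00046). Vehicle and MS-275 libraries lay close together there, and the CXD101 libraries were below both. H2-Ob, a chain of the peptide-loading modulator DO, was at 1.02 and 0.709 FPKM under CXD101 and 1.92 and 2.38 under MS-275 (log2 difference 0.76, adjusted p = 0.0192), a call lost without CXD101 replicate 2 or either MS-275 library (adjusted p up to 0.11). All 7 dendritic cell markers failed the filter, with sums of 1.24 and 0.775 FPKM under MS-275 and 2.09 and 1.16 under CXD101.

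Interferon-inducible GTPases, which attack vacuoles around intracellular microbes, had positive differences in all 12 tested members. The median was 0.39 beside -0.04 over all genes, and 5 were called higher, beside 3.31% of all tested genes. The genes Gbp8, Gbp9, Gbp4 and Gbp6 lie together on chromosome 5, where the annotated spans of the first 3 overlap on the same strand. Gbp8 was at 2.28 and 2.51 FPKM in vehicle, 4.35 and 3.6 under CXD101 and 9.47 and 12 under MS-275 (log2 difference 1.23, adjusted p = 0.00134). Gbp4 was at 0.646 and 0.394 FPKM in vehicle, 1.55 and 1.11 under CXD101 and 4.36 and 4.77 under MS-275 (log2 difference 1.26, adjusted p = 0.00212). For both, no MS-275 library overlapped another group. Gbp3 (log2 difference 0.59), Gbp6 (0.61) and Gbp9 (0.70) were weaker, and their calls were lost for Gbp3 without CXD101 replicate 2 or either MS-275 library (adjusted p up to 0.079), Gbp6 without any 1 of the 6 libraries (adjusted p up to 0.143) and Gbp9 without CXD101 replicate 2 or MS-275 replicate 1 (adjusted p up to 0.0653). These genes are close paralogs and some overlap, so reads may be shared among them. Of 28 tested type I interferon-stimulated genes, 3 were called higher (beside 3.31% of all tested genes) and none lower (median 0.10). Oas3, an oligoadenylate synthetase, was at 1.56 and 1.69 FPKM in vehicle, 2.11 and 2.16 under CXD101 and 4.87 and 5.84 under MS-275 (log2 difference 1.01, adjusted p = 0.00222). Dhx58, the RNA sensor LGP2 (log2 difference 0.62, adjusted p = 0.00546), and Usp18, the ISG15 protease (log2 difference 0.67, adjusted p = 0.0448), were the others, with calls lost for Dhx58 without MS-275 replicate 1 (log2 difference 0.56) and Usp18 without any 1 of the 6 libraries (adjusted p up to 0.191).

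Effectors of T cell suppression went in both directions. Of 21 tested, 3 were called higher and 1 lower. Arg1, the arginase of suppressive myeloid cells, was at 18.5 and 22 FPKM in vehicle, 16.2 and 20.7 under CXD101 and 3.58 and 6.92 under MS-275 (log2 difference -1.68, SE 0.228, adjusted p = 0.00318). CXD101 and vehicle libraries overlapped, and both MS-275 libraries were lower. Arg2, the mitochondrial arginase, was higher under MS-275, at 4.39 and 3.02 FPKM in vehicle, 4.24 and 2.37 under CXD101 and 9.08 and 8.43 under MS-275 (log2 difference 1.21, adjusted p = 0.00825). Nt5e, the adenosine-forming ectoenzyme CD73, was at 0.986 and 0.882 FPKM in vehicle, 2.53 and 2.13 under CXD101 and 7.76 and 7.61 under MS-275 (log2 difference 1.38, SE 0.122, adjusted p = 0.000437). Pdcd1lg2, which encodes PD-L2, was at 1.12 and 0.993 FPKM under CXD101 and 2.01 and 2.37 under MS-275 (log2 difference 0.63, adjusted p = 0.023), a call lost without any 1 of the 4 treated libraries (adjusted p up to 0.127). Gdf15, a stress cytokine among the 12 largest decreases, was at 18.3 and 16.9 FPKM in vehicle, 16.9 and 25.2 under CXD101 and 5.67 and 6.17 under MS-275 (log2 difference -1.64, adjusted p = 0.00069).

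Chemokine ligands went in both directions. Of 16 tested, 6 were higher and 4 lower under MS-275. The 4 lower genes form 2 neighboring pairs. Ccl2, the ligand of CCR2, was at 31.1 and 33.9 FPKM in vehicle, 16.7 and 14.5 under CXD101 and 6.85 and 6.31 under MS-275 (log2 difference -1.13, SE 0.0954, adjusted p = 0.000371), and its neighbor Ccl7 was lower as well (log2 difference -0.96, adjusted p = 0.0127), a call lost without CXD101 replicate 1 or MS-275 replicate 2 (adjusted p up to 0.0774). Ccl22, a ligand of CCR4 on regulatory T cells, was at 13.3 and 12 FPKM in vehicle, 5.8 and 4.54 under CXD101 and 1.77 and 0.948 under MS-275 (log2 difference -1.40, adjusted p = 0.00224). Its neighbor Ccl17 was at 41.8 and 28.3 FPKM in vehicle, 4.98 and 5.93 under CXD101 and 2.21 and 1.75 under MS-275 (log2 difference -1.12, adjusted p = 0.00539). In these genes both inhibitors lay below vehicle. Higher were the adjacent platelet and neutrophil chemokine genes Ppbp (0.867 and 0 FPKM in vehicle, 4.98 and 4.33 under CXD101, 13.6 and 13.4 under MS-275), Pf4 (7.89 and 9.26 in vehicle, 19.4 in both under CXD101, 32.4 and 29.9 under MS-275) and Cxcl3 (5.02 and 3.16 in vehicle, 9.65 and 9.83 under CXD101, 18.7 and 30.3 under MS-275), with log2 differences of 1.36, 0.65 and 1.21. Ccl9 (209 and 208 against 130.2 and 124 FPKM, log2 difference 0.71, adjusted p = 0.000317), Ccl4 (log2 difference 0.90, adjusted p = 0.023) and Cxcl14 (log2 difference 0.74, adjusted p = 0.0288) were the other 3. Calls were lost for Ppbp without CXD101 replicate 2 (adjusted p up to 0.0611), Cxcl3 without either CXD101 library (adjusted p up to 0.0601), Ccl4 without CXD101 replicate 2 or MS-275 replicate 2 (adjusted p up to 0.0987) and Cxcl14 without CXD101 replicate 1 or either MS-275 library (adjusted p up to 0.133), and without CXD101 replicate 2 the difference of Ccl4 was 0.54.

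Ppbp and Pf4 are also platelet markers. The 7 listed platelet and megakaryocyte genes, Ppbp and Pf4 among them, summed to 49.8 and 46.3 FPKM under MS-275, 26.3 and 24.8 under CXD101 and 10.8 and 9.82 in vehicle, and Itga2b, Gp1bb and Tubb1 stayed under 1 FPKM in all 6 libraries. Gp9, the only other one tested, passed the filter through the MS-275 libraries alone (1.7 and 1.25 against 0.638 and 0.338 FPKM), and its call was lost without any 1 of the 4 treated libraries (adjusted p up to 0.199). The part of attached platelets in the difference was not tested. Eosinophil markers had 1 call of 7 tested, Siglecf (12 and 11.6 against 6.15 and 6.28 FPKM, log2 difference 0.82, adjusted p = 0.00834), lost without CXD101 replicate 1 (adjusted p up to 0.0513). The eosinophil sum was 396 and 424 FPKM under MS-275, 383 and 412 under CXD101 and 161 and 197 in vehicle, so it overlapped between the inhibitors. Basophil and mast cell markers (4 tested), hepatocyte and tumor markers (3) and stromal markers (1) gave no call, with sums between 27.1 and 53.9 FPKM in the treated libraries.

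Ccr2, the receptor that brings monocytes to tumors, was at 147 and 137 FPKM in vehicle, 137 and 125 under CXD101 and 125 and 124 under MS-275. The difference did not pass the test (log2 difference -0.07, adjusted p = 0.523), and the 95% interval of the log2 difference was -0.22 to 0.08. Of the 6 tested chemokine receptors, 2 were called higher under MS-275 and none lower. Cxcr2, the neutrophil receptor for CXC chemokines, was at 2.81 and 3.11 FPKM in vehicle, 8 and 7.75 under CXD101 and 20.8 and 19.7 under MS-275 (log2 difference 1.26, SE 0.0924, adjusted p = 0.000265). Cxcr4 (log2 difference 0.28) and Ccr1 (0.26) passed the adjusted p but not the fold limit. Among cytokine receptors, 2 of 24 were called, the neighboring genes Csf2rb and Csf2rb2. Of these, Csf2rb encodes the shared beta chain of the GM-CSF, IL-3 and IL-5 receptors. Csf2rb was at 225 and 220.4 FPKM in vehicle, 216 and 218 under CXD101 and 396 and 380.2 under MS-275 (log2 difference 0.83, SE 0.0524, adjusted p = 0.000172). Csf2rb2 was at 55.8 and 55.4 FPKM in vehicle, 55.6 and 55 under CXD101 and 94 and 94.8 under MS-275 (log2 difference 0.76, SE 0.056, adjusted p = 0.000265). CXD101 and vehicle libraries were close together in both genes, which are paralogs and may share reads.

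Transcripts of the inhibited enzymes themselves gave no call, and neither did the other HDAC genes among 9 tested. Hdac1 was at 86.3 and 87.8 FPKM in vehicle, 116 and 112 under CXD101 and 129 and 127 under MS-275, a small difference that passed neither limit (log2 difference 0.17, adjusted p = 0.0701, 95% interval 0.05 to 0.30). For Hdac2 the interval was -0.17 to 0.11 and for Hdac3 -0.15 to 0.16. Of 28 genes of the HDAC1 to HDAC3 corepressor complexes, 1 was called, Rcor2, a CoREST family member (3.33 and 3.61 against 1.61 and 1.31 FPKM, log2 difference 0.86, adjusted p = 0.00757). Among 9 tested genes of the NEDD4 family of ubiquitin ligases and its adaptors, Nedd4 itself was the 1 call, at 11.9 and 9.03 FPKM in vehicle, 20.3 and 19.3 under CXD101 and 28.3 and 33.5 under MS-275 (log2 difference 0.61, adjusted p = 0.0168). Both inhibitors were above vehicle, and the call between them was lost without either CXD101 library or MS-275 replicate 2 (adjusted p up to 0.0882). The ubiquitin ligase genes Trim6 (log2 difference 0.34, adjusted p = 0.204, interval -0.04 to 0.72) and Trim32 (log2 difference 0.07, adjusted p = 0.756, interval -0.22 to 0.36) were not called. Histone genes had 3 of 21 called higher, Hist1h2bc (0.90), Hist1h2bg (0.90) and H1fx (0.86), all lost when single libraries were left out: Hist1h2bc without either CXD101 library or MS-275 replicate 1 (adjusted p up to 0.111), Hist1h2bg without CXD101 replicate 2 or MS-275 replicate 2 (adjusted p up to 0.0701) and H1fx without CXD101 replicate 2 or either MS-275 library (adjusted p up to 0.0642).

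Most mitotic genes had small negative differences. Of 44 cell cycle genes, 40 were negative, with a median of -0.28 beside -0.04 over all genes. Calls were 5 lower (beside 1.19% of all tested genes) and none higher. With the adjusted p alone, 25 were lower and 1 higher, beside 8.15% and 6.39% of all tested genes. Cdc20, the activator of the anaphase promoting complex, was at 69.9 and 71.8 FPKM in vehicle, 55.8 and 52.3 under CXD101 and 32.5 and 34.3 under MS-275 (log2 difference -0.68, SE 0.0649, adjusted p = 0.00069). Ube2c, its ubiquitin-conjugating enzyme, was at 183 and 157 FPKM in vehicle, 113 and 105 under CXD101 and 69.1 and 72 under MS-275 (log2 difference -0.62, adjusted p = 0.00245). Both inhibitors lay below vehicle with MS-275 the lower. Kif20a (-0.68), Plk1 (-0.63) and Cenpa (-0.60) were the other calls, and calls were lost for Kif20a without CXD101 replicate 1 (log2 difference -0.56), Plk1 without CXD101 replicate 1 (log2 difference -0.56), Ube2c without CXD101 replicate 1 (log2 difference -0.57) and Cenpa without CXD101 replicate 1 or MS-275 replicate 1 (log2 difference -0.57). Among 7 CDK inhibitor genes, Cdkn2a, which encodes p16 and p19, was at 0.147 and 0.273 FPKM in vehicle, 0.15 and 0.476 under CXD101 and 2.53 and 1.77 under MS-275 (log2 difference 1.26, adjusted p = 0.00506). Cdkn1c, which encodes p57, was called at 1.11 and 1.15 against 0.228 and 0.181 FPKM and lost without CXD101 replicate 2 or either MS-275 library (adjusted p up to 0.0658). Cdkn1a, which encodes p21, was lower without reaching 1.5-fold (138 and 139 against 179 and 186 FPKM, log2 difference -0.39, adjusted p = 0.00317). In the BCL2 family (19 tested), the prosurvival gene Bcl2a1a was lower (54.8 and 63.2 FPKM in vehicle, 22.1 and 26.7 under CXD101, 10.7 and 14.3 under MS-275, log2 difference -0.92, adjusted p = 0.00465). The BH3-only gene Bmf was higher (6.83 and 5.97 against 3.11 and 3.2, log2 difference 0.83, adjusted p = 0.00342), as was Bik (log2 difference 0.85, adjusted p = 0.0233), a call lost without either CXD101 library or MS-275 replicate 2 (adjusted p up to 0.132).

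Genes with roles in cytotoxic granules and NK cell engagement had 3 of 17 called higher and 1 lower. Nkg7, a granule membrane protein gene of cytotoxic cells, was at 9.19 and 6.01 FPKM in vehicle, 37.9 and 27.9 under CXD101 and 66.3 and 72.7 under MS-275 (log2 difference 1.07, adjusted p = 0.00753). Raet1d, a ligand of the NK receptor NKG2D, was higher (4.62 and 3.24 against 1.05 and 1.3 FPKM, log2 difference 1.17, adjusted p = 0.0217) and Il15 lower (0.562 and 0.812 against 1.72 and 1.73, log2 difference -0.69, adjusted p = 0.0165), with calls lost for Raet1d without either CXD101 library or MS-275 replicate 1 (adjusted p up to 0.109) and Il15 without either CXD101 library or MS-275 replicate 1 (adjusted p up to 0.0918). The third increase is Ccl4, given above. Calls in other lists were Itga6, an integrin chain (0.74, adjusted p = 0.00174), Osm, oncostatin M (-0.73), Ly96, the TLR4 partner MD-2 (-0.95), Clec7a, the beta-glucan receptor (0.63, adjusted p = 0.00106) and Clec4a2 (-0.71, adjusted p = 0.00166). Calls were lost for Osm without CXD101 replicate 2 or MS-275 replicate 2 (adjusted p up to 0.128) and Ly96 without either CXD101 library, MS-275 replicate 1 or either vehicle library (adjusted p up to 0.158), and the difference of Ly96 was -0.48 without MS-275 replicate 1. Mir6516, a microRNA gene of 110 bases on chromosome 11, was listed at 0 in both MS-275 libraries and 1 vehicle library, at 27.3 FPKM in the other vehicle library and at 26.7 and 28 under CXD101. FPKM of so short a gene rests on few reads, and the call was lost without any 1 of the 4 treated libraries (adjusted p up to 0.116).

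Some called genes followed each other in the order of tested genes along a chromosome, whatever the distance. Of 358 genes called higher with a position in GENCODE vM21 (GRCm38), 70 (19.6%) lay next to another tested gene called the same way, in 31 runs, and of 129 called lower, 19 (14.7%) in 9 runs. The share expected without any clustering was not calculated, so these counts are a description only. Some runs are wide, such as Marcks and Fam229b over 2000.54 kb. The longest runs, of 4 genes each, were Gbp8, Gbp9, Gbp4 and Gbp6 (chr5:105014150-105293698) and Rassf6, Ppbp, Pf4 and Cxcl3 (chr5:90603076-90789600). Runs of 3 included Serpinb2, Serpinb10 and Serpinb8 (chr1:107511423-107610484) and, among the lower genes, 2010005H15Rik, Stfa1 and BC100530 (chr16:36221468-36367748). Clec7a and Olr1, and Csf2rb2 and Csf2rb, were called higher as pairs, and Ccl2 and Ccl7, and Ccl22 and Ccl17, lower as pairs. Several of these runs are gene families whose copies may share reads, and the annotated spans of Gbp8, Gbp9 and Gbp4 overlap.

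The same contrast was available in PMN-MDSCs. The labels do not say whether M-MDSC and PMN-MDSC libraries came from the same mice. The interaction fit below had no term for mouse. Across the 10944 genes the 2 contrasts had a Pearson r of 0.395 and a Spearman rho of 0.389, a description across genes. Of the 362 genes called higher in M-MDSCs, 309 also had a positive difference in PMN-MDSCs, where the median was 0.29 beside 0.81 in M-MDSCs, and 48.2% of all genes were positive there. Of the 130 called lower, 112 were negative in PMN-MDSCs (median -0.32 beside -0.74). The M-MDSC values include the effect of choosing genes on them. Ly6a (PMN-MDSC log2 difference 1.58), H2-Q8 (2.51), Cd34 (1.09), Mrc1 (-2.47), Marco (-2.22) and Fabp4 (-2.84) pointed the same way in both. The last 3 had a larger difference in PMN-MDSCs than in M-MDSCs. None of these 3 passed the limma interaction test described next (adjusted p = 0.462 for Mrc1, 0.591 for Marco and 0.114 for Fabp4).

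Tested as an interaction over 11532 genes and all 12 libraries, the contrast was higher in M-MDSCs than in PMN-MDSCs for 28 genes (0.243%) and lower for 22 (0.191%), and 36 of these 50 were also called within M-MDSCs. At an unadjusted p under 0.05 there were 1609. Cox4i2 had a difference of 2.38 in M-MDSCs and 0.80 in PMN-MDSCs (difference of the contrasts 1.57, adjusted p = 0.0375). Mmp8 had 1.77 and 0.64 (adjusted p = 0.0253) and Nt5e 1.38 and 0.25 (adjusted p = 0.0349). On the lower side, Ltf had -1.49 in M-MDSCs and -0.28 in PMN-MDSCs (adjusted p = 0.0175), and Ccl22 -1.40 and -0.06 (adjusted p = 0.0375). Leaving out any 1 of the 8 treated libraries lowered these counts to between 2 and 12 higher and between 9 and 16 lower.

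**Figure D4:**
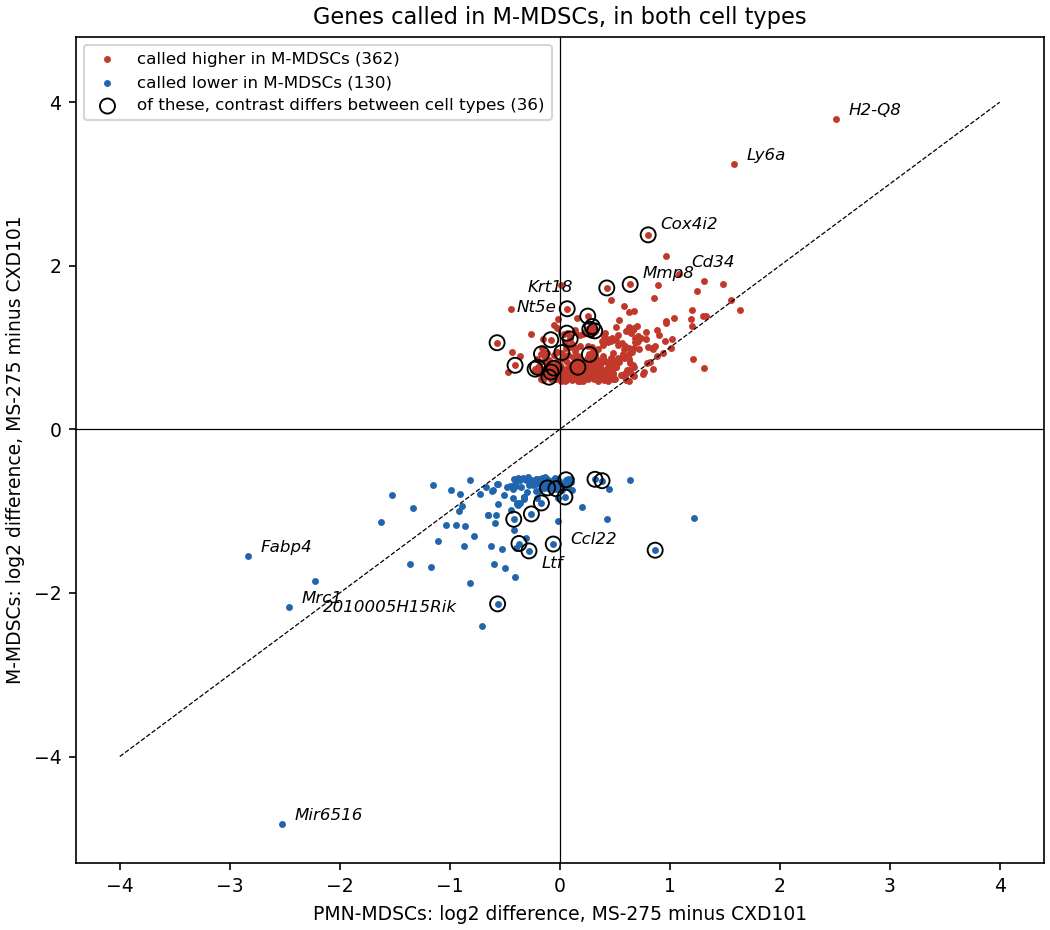
log2 difference (MS-275 minus CXD101, log2(FPKM + 1) scale) in PMN-MDSCs (x axis) and in M-MDSCs (y axis) for the genes called in M-MDSCs (362 higher in red, 130 lower in blue), with the dashed line of equal differences. Circles mark the 36 of them whose contrast differed between the cell types in the interaction test; most points lie closer to 0 on the x axis than on the y axis.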

How the data were processed

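RNA of sorted tumor MDSCs was prepared with a TruSeq stranded mRNA kit and read as 101-base single ends on a NovaSeq instrument. The authors deposited 1 table of FPKM per library. The submitters' processing notes name TopHat2 2.1.1, Bowtie2 2.2.8, SAMtools 0.1.18, Cuffdiff 2.2.1 and the build mm10, without their roles. Whether counting used strand is not given in the sources used here. Depth was estimated from the FPKM that 1 read gives in 3076 genes with a single transcript of at least 1000 bases. The search was limited in advance to a set range of depths, so a depth outside that range could not have been found.

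Genes with FPKM of at least 1 in 2 or more of the 4 treated M-MDSC libraries were tested on log2(FPKM + 1) with limma 3.58.1 (R 4.3.3), contrast MS-275 minus CXD101, in a fit of all 6 M-MDSC libraries with an intensity trend and Benjamini-Hochberg adjustment. Calls needed an adjusted p under 0.05 and a fold above 1.5. The script was tested on simulated data. An exact permutation of 2 against 2 libraries has 6 arrangements and cannot reach p under 0.05. The interaction with cell type used all 12 libraries.

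The comparison, gene lists and named genes were chosen with earlier results of these data known. Named genes were drawn from the 12 largest called increases and decreases with a mean of at least 5 FPKM in the higher group and no overlap between groups, the 4 largest differences of each list, and Ccr2, Nedd4, Trim6, Trim32, Hdac1, Hdac2, Hdac3 and the sorting markers. Gm16897, Adgre1, Gata2, Hoxa10, Erg, Egfl7, Stfa2, Cst3, Cstb, Stfa2l1, Fcnb, Gbp3, Cenpa, Kit, Myb, S100a8, S100a9, Ccl7, Ccl9, Ccl17, Cxcl14 and the neighbors listed in runs were named after their values were seen. Positions are from GENCODE vM21 and promoters from RefSeq (GRCm38.p6). Alternatives varied the pseudocount, filter, scaling, trend, fold limit, libraries and replicate block.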

Additional observations from a re-analysis of the deposited data

Results flagged for a closer look

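The following genes had a contrast between MS-275 and CXD101 that differed between M-MDSCs and PMN-MDSCs in the limma interaction test (adjusted p by Benjamini-Hochberg over 11532 genes). Values are the M-MDSC contrast minus the PMN-MDSC contrast on the log2(FPKM + 1) scale. Cox4i2 had 1.57 (adjusted p = 0.0375), with both cell types higher under MS-275. Krt18 had 1.30 (1.73 in M-MDSCs and 0.43 in PMN-MDSCs). Mmp8 had 1.13 and Nt5e had 1.13. Cxcr2, the neutrophil chemokine receptor, had 0.96 (1.26 and 0.30). Kit had 0.62 (0.53 and -0.09) and Csf2rb2 had 0.59 (0.76 and 0.16). Among genes lower in M-MDSCs, the stefin gene 2010005H15Rik had -1.57 (-2.13 and -0.57), Ccl22 had -1.34, Ltf had -1.21 and Ngp had -0.68 (-1.10 and -0.42). All of these listed genes except Kit had the same sign in both cell types. The list holds only genes named above, out of 28 higher and 22 lower in the test. Other genes called there had opposite signs. Examples are S100a4 (-0.34 in M-MDSCs and 0.91 in PMN-MDSCs, adjusted p = 0.00226) and Apoc2 (-1.48 and 0.87, adjusted p = 0.00718).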

How the results depend on the processing

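With 2 libraries a group, low genes and single libraries limit these results. Against 362 higher and 130 lower genes, a fold limit of 2 left 98 and 37, and a minimum of 5 FPKM left 159 higher genes, fewer being tested. Leaving out 1 library gave 231 to 355 higher and 123 to 137 lower genes, the fewest higher without MS-275 replicate 1. The lone remaining library of a group is then assumed to vary like the other groups. For the difference between cell types (28 and 22 genes), a fold limit of 2 gave 16 and 10, no filter 13 higher, a pseudocount of 0.1 17 higher, the replicate block 10 higher, and leaving out 1 library 2 to 12 higher and 9 to 16 lower. The cause of these shifts was not tested. Same-numbered libraries showed little shared shift: deviations of same-numbered MS-275 and CXD101 libraries correlated at 0.05 across genes. This cannot settle whether samples were handled in pairs, which the labels do not say. With the replicate block 357 genes were higher and 127 lower, 346 and 125 of them shared with the fit without it.

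Of 102 named calls, 62 held in all 6 fits without 1 library, 73 in all 9 other settings and 60 in both, and none changed sign. Signs turned for genes not called: under quantile normalization Ccr2 (0.0297), Hdac2 (0.0503), Itgam (0.0632) and S100a8 (-0.18), under median-of-ratios scaling Itgam (0.0142), and over fits without 1 library Hdac3 (-0.0525 to 0.0571), Trim32 (-0.0542 to 0.19), Ly6c1 (-0.00408 to 0.32) and S100a9 (-0.0805 to 0.17).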
